A study of Mus musculus with 9 samples.

Results

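Parvalbumin (PV) interneurons were described across 9 single-nucleus RNA libraries of mouse brain. Nuclei with 200 to 5000 detected genes and at most 10% mitochondrial molecules were kept, and RNA molecules were counted as unique molecular identifiers (UMIs). A kept nucleus was a member when Gad1 and Gad2 together had at least 3 UMIs and more than Slc17a7 and Slc17a6 together, when Pvalb had at least 1 UMI and more than Sst, and when Vip, Drd1 and Drd2 had 0. At least 1 of Lhx6, Btbd11 and Kcns3 also had to be detected. This gate found 377 members among 7836 GABAergic nuclei, 74895 kept nuclei and 77823 barcodes in all.

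PV interneurons are inhibitory neurons of cortex and hippocampus that release GABA onto the soma, proximal dendrites or axon initial segment of excitatory neurons. They fire brief spikes at high rates, which rely on Kv3 potassium channels, and many are wrapped in perineuronal nets of hyaluronan and chondroitin sulphate proteoglycans. Parvalbumin itself is a calcium-binding protein, and the cells share a medial ganglionic eminence origin, marked by Lhx6, with somatostatin (Sst) interneurons, whereas most Vip interneurons come from another eminence.

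The libraries came from 9 wild-type male C57BL/6 mice, 1 library per mouse, in 3 groups of 3: young AAV-EGFP (5 months), aged AAV-EGFP (19 months) and aged AAV-B3GNT3 (19 months). The aged mice were from a National Institute on Aging colony and the young mice from Jackson Laboratories. Age and supplier therefore cannot be told apart in any comparison of aged with young mice. Each mouse had received, by retro-orbital injection 8 weeks earlier, an AAV-PHP.V1 vector with a short CLDN5 promoter that is active in brain endothelial cells, so expression was directed at blood vessels and not at neurons. The vector encoded EGFP alone, which is the control cargo that young and aged controls carry, or EGFP with B3GNT3, a glycosyltransferase that lengthens O-linked glycans of the mucin type. Cortex and hippocampus of a mouse were combined before the nuclei were sorted, so no nucleus can be placed in either region. Mouse B3gnt3 had 0 UMIs in the PV sums of all 9 libraries and 5 to 15 UMIs per library in all kept nuclei, and the transgene was not analysed here.

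PV members numbered 50, 43 and 33 in the young AAV-EGFP libraries, 18, 53 and 54 in the aged AAV-EGFP libraries and 39, 42 and 45 in the aged AAV-B3GNT3 libraries. A member held 3675 to 25448 UMIs (median 12139) and 1783 to 4999 genes (median 3812). Aged AAV-EGFP replicate 1 gave the smallest sum, 235368 UMIs, against up to 716597 in the others. Between any pair of libraries 7 to 37 cell barcodes were shared, and 0 of the shared barcodes were PV members in both.

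The values that chose the members lay close to the limits of the gate. Pvalb had 1 UMI in 241 members, 2 in 88 and 3 or more in 48, with 8 as the highest count, and the median depth rose across these classes from 11281 to 13233.5 and 14591.5 UMIs. Gad1 and Gad2 together had exactly 3 UMIs in 40 members. Btbd11, a protein with BTB and ankyrin domains, was detected in 370 members, Kcns3, a silent potassium channel subunit, in 212 and Lhx6 in 206, and 122 members had all 3 of them.

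Just outside the gate, 65 nuclei failed only the Gad clause, 37 of them with 2 UMIs, and 20 failed only for lack of an anchor gene. A further 72 nuclei met every clause but held over 5000 genes. The clause on Pvalb alone kept out 2757 nuclei, of which 2731 had 0 Pvalb UMIs. The gate therefore reads depth as well as cell type: when each GABAergic nucleus with at least 2000 UMIs was thinned to that number, 0 to 4 members per library were left, too few to compare.

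Pvalb UMIs were also found in cells that should lack the gene. They were present in 1.05% of excitatory nuclei (47 of 4465), whose median depth of 11234.5 to 15272 UMIs per library was like that of PV members (10931.5 to 15038), and in 0.608% of oligodendrocytes and 0.613% of astrocytes, which were shallower (1854 to 3763). Among GABAergic nuclei the share was 6.52%. As CPM (UMIs of the summed nuclei scaled to a total of 1000000), Pvalb was at 111 to 156 (median 119) in the PV sums, 0 to 2.92 in the sums of Sst nuclei and 0.406 to 1.45 in those of excitatory nuclei. The PV and Sst gates read Pvalb, so its high and low levels there were set by rule.

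All 4 markers of the cells (Pvalb, Btbd11, Lhx6 and Kcns3) were detected in every PV sum, Pvalb by rule. The 3 anchor genes, of which the gate needed only 1, are given as a description. Btbd11 stood at 667 to 1191 CPM in PV sums against 140 to 273 in Sst sums and 265 to 693 in Vip sums, which overlapped the PV range. Lhx6 was alike in PV (54.8 to 84.9) and Sst sums (45.8 to 83.1) and near 0 in Vip sums (0 to 4.68). Kcns3 was at 55.9 to 106 in PV sums and 31.8 to 63.8 in Sst sums.

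Genes of other classes were also detected in PV members. The 10 excitatory markers summed to 386 CPM in PV members and 2268 in excitatory nuclei, with Camk2a giving 301 of the former. The 9 oligodendrocyte markers summed to 277 in PV members against 11872 in oligodendrocytes. The 8 Vip or Lamp5 markers summed to 305 against 17581 in Vip nuclei, with Vip (by rule) and Ndnf at 0. Adarb2 alone gave 16346 of the 17581. Gates read some of the genes summed, so these contrasts were partly set by rule. The PV gate reads Slc17a7 and Slc17a6, and the excitatory gate Slc17a7. Oligodendrocytes were chosen on Mog, Mobp, Cldn11 and St18, and the Vip gate reads Vip, Adarb2, Prox1 and Calb2. Of the 10 striatal markers, Drd1 and Drd2 were at 0 by rule and Pde10a, a phosphodiesterase, alone gave 1281 of a sum of 1457, against 2437 and 3559 in all GABAergic nuclei. Nuclei with such molecules were not removed, and 117 members held 2 or more UMIs of other-class markers. The 10 markers of subcortical GABAergic neurons summed to 82.3 CPM in PV members, with Meis2 giving 65.0 of it. Meis2 was uneven between libraries, at 6 to 76 UMIs per PV sum. Whether some members are subcortical neurons was not tested.

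**Figure D1:**
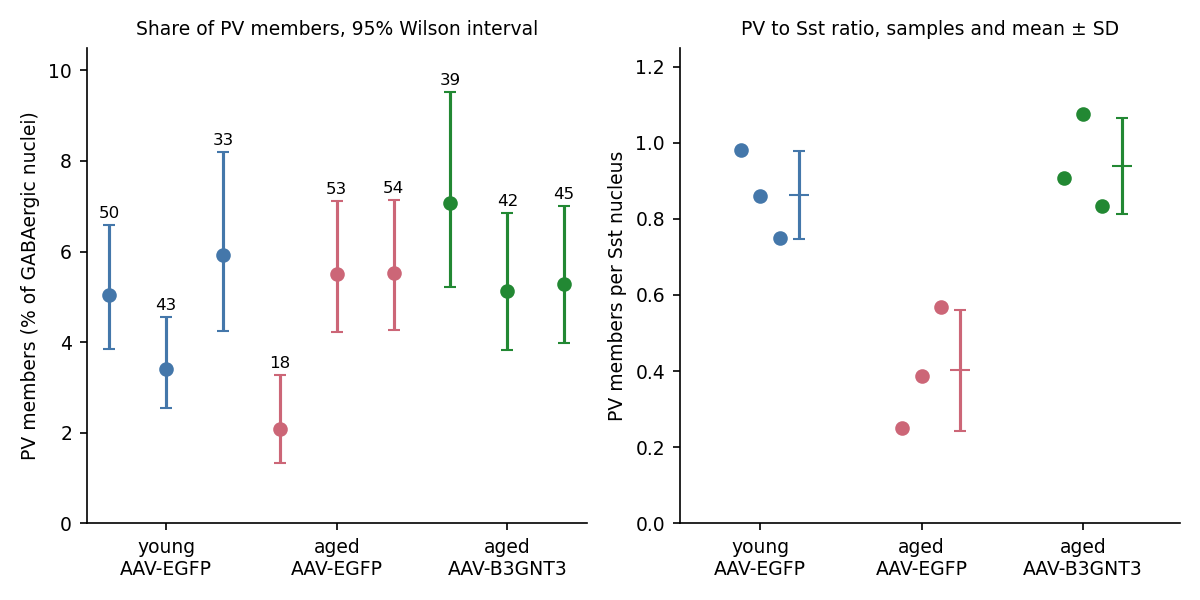
The left panel plots PV members as a percentage of GABAergic nuclei in each of the 9 libraries, with 95% Wilson intervals and the number of members above each bar, and the right panel plots PV members per Sst nucleus with the mean ± SD of each group (n = 3). The library with 18 members is the lowest on the left, and on the right the 3 aged AAV-EGFP libraries lie at 0.250 to 0.568, below the other 6, which lie at 0.750 to 1.08.

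The share of PV members overlapped between the 3 groups. They were 5.05, 3.40 and 5.92% of GABAergic nuclei in young AAV-EGFP mice, 2.09, 5.49 and 5.53% in aged AAV-EGFP mice and 7.08, 5.13 and 5.29% in aged AAV-B3GNT3 mice. Aged AAV-EGFP replicate 1 was the lowest library and the groups overlapped. The means were 4.79% ± 1.28, 4.37% ± 1.97 and 5.83% ± 1.08 (SD, n = 3 each), and an F statistic permuted exactly over all 280 partitions of the libraries gave p = 0.514. Of all kept nuclei, the means were 0.511% ± 0.0655, 0.480% ± 0.209 and 0.530% ± 0.107 (SD, n = 3; exact permutation p = 0.936). Median UMIs per PV nucleus did not separate the groups either (exact permutation p = 0.857), and for any pair of groups of 3 the smallest possible two-sided p is 0.1. Because the gate needs a Pvalb UMI, fewer PV cells and less Pvalb RNA per cell cannot be told apart in these shares.

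Set against Sst nuclei, the aged AAV-EGFP libraries stood apart. Members per Sst nucleus were 0.980, 0.860 and 0.750 in young AAV-EGFP mice, 0.250, 0.387 and 0.568 in aged AAV-EGFP mice and 0.907, 1.08 and 0.833 in aged AAV-B3GNT3 mice. All 3 aged AAV-EGFP values lay below the other 6. The same exact permutation gave p = 0.0179, without adjustment, with 0.1 for each of the 2 comparisons against aged AAV-EGFP, the smallest value possible, and 0.5 between the other groups. This ratio was chosen after its values were seen. The 2 gates set Pvalb and Sst against each other, so a change in either RNA can move both terms. Cell number and RNA per cell therefore cannot be told apart in this ratio. Values of the denominator are given beside it: Sst nuclei were 5.67% ± 2.02, 10.8% ± 3.05 and 6.30% ± 1.52 of GABAergic nuclei (SD, n = 3; exact permutation p = 0.05).

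The first question was which genes, beyond those of the gates, set PV members apart from the most alike interneurons. Sst nuclei (585) were gated on Sst with Lhx6, Elfn1 or Grin3a, and Vip nuclei (482) on Vip with Adarb2, Prox1 or Calb2. UMIs were summed per mouse and gate, and levels are given as CPM of tested genes after TMM scaling, a correction for library composition. Of 7967 genes tested against Sst nuclei with the quasi-likelihood test of edgeR, with the mouse as a block, 2459 (30.9%) passed an adjusted p of 0.05, 1191 higher (14.9%) and 1268 lower (15.9%). Against Vip nuclei 3123 of 7887 (39.6%) passed, 1505 higher (19.1%) and 1618 lower (20.5%). Depth was not equal: median UMIs per library were 8886 to 13310.5 in Sst and 6082.5 to 9974.5 in Vip nuclei, and its part in the differences was not tested. Oligodendrocyte markers also moved with the Vip comparison: 8 of 8 tested were lower in PV members (median log2 difference -0.88), and the sum of the 9 listed was 136 to 671 CPM in PV and 318 to 703 in Vip sums, lower in PV in 9 of 9 libraries and with 0 markers at 0. Against Sst nuclei 0 of 6 were called, with sums of 142 to 922 CPM in Sst nuclei. Of astrocyte markers 1 of 2 tested was lower than in Vip nuclei, with sums of 49.7 to 144 and 71.8 to 243 CPM. Striatal markers that no gate read were lower in 3 of 4 tested than in Sst nuclei (median -0.89). Against Vip nuclei 4 of 5 were lower and 1 higher (median -2.21). Excitatory markers were higher in 1 of 4 than in Sst nuclei and lower in 2 of 4 than in Vip nuclei. Such markers could be tested because of the other gate alone, which favours a lower value in PV members. In the fit of PV sums alone, 4 oligodendrocyte and 2 striatal markers had enough counts to be tested. The part of other-class RNA in the differences was not tested.

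**Figure D2:**
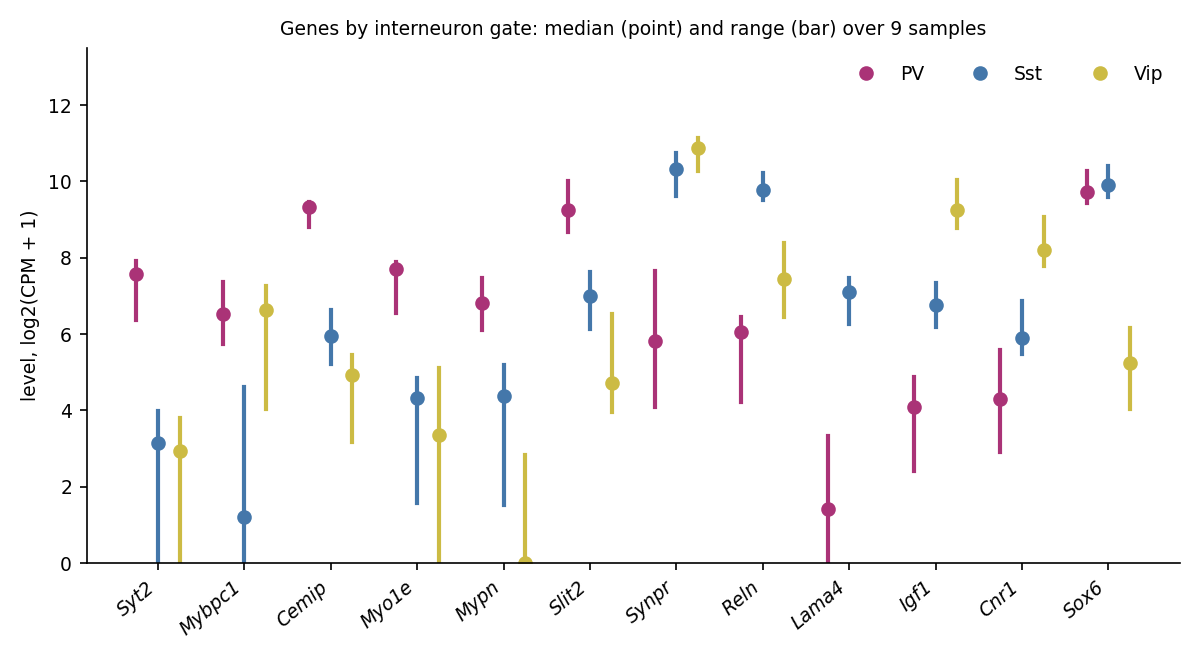
Levels of 12 genes, on a log2(CPM + 1) axis, in the summed PV, Sst and Vip nuclei of 9 libraries, with the median as a point and the range as a bar. Syt2, Cemip, Myo1e, Mypn and Slit2 lie higher in PV sums than in both others, Mybpc1 overlaps between PV and Vip sums, Sox6 is shared by PV and Sst sums, and Lama4 has no Vip value because it was not tested there.

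Among genes that no gate read, higher in PV members than in Sst nuclei and with a mean of at least 50 UMIs per PV sum, Syt2, Mybpc1, Pde5a, Myo1e and Cemip had the largest differences. Syt2, a fast calcium sensor of synaptic vesicles, was at 81.7 to 239 CPM (median 190) in PV sums and 0 to 14.9 (median 7.86) in Sst sums, a log2 difference of 4.32 ± 0.20 (SE; edgeR adjusted p = 9.83e-13). Mybpc1, a myosin-binding protein known from slow muscle, was at 52.7 to 163 against 0 to 23.6 (4.31 ± 0.33, and 4.06 to 5.19 when 1 library was left out, highest without aged AAV-B3GNT3 replicate 3). Neither gene overlapped between the gates in any of the 9 libraries.

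Pde5a, a phosphodiesterase for cyclic GMP, followed at 160 to 302 CPM in PV sums and 3.71 to 44.6 in Sst sums (log2 difference 3.47). Cemip, a hyaluronan-binding protein, was at 443 to 709 against 36.1 to 98.6 (3.27), and the class I myosin Myo1e at 92.4 to 235 against 1.98 to 27.9 (3.34). The other genes named by the rule were Tmem108, Mypn (myopalladin, a sarcomere protein), the splicing factor Rbm20, the guidance ligand Slit2 and the transcription factor Trps1, with log2 differences of 2.98, 2.64, 2.43, 2.29 and 2.17. All 10 were higher in PV sums in 9 of 9 libraries with no overlap between the gates. They were chosen as the largest differences, so this describes the choice, and the share of all genes without overlap is not given here.

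Promoter windows were read for Pvalb, Btbd11, Lhx6, Kcns3 and Syt2, the marker genes and the first gene named as higher than in Sst nuclei, from RefSeq (GRCm38.p6; 11 windows of 300 bases, 250 before to 50 after a start). Each strand was searched for 4 motifs: AGGTCA and TCAAGGTCA, the half-site and extended site that oestrogen-related receptors bind, the former lying inside the latter, TAATTA, a homeodomain core, and CACGTG, an E-box. The extended site was found in 1 of the 11 windows, TAATTA in 1 and CACGTG in 0. Of 32851 promoter windows in the table, 0.423% held TCAAGGTCA, 16.3% AGGTCA, 5.29% TAATTA and 7.15% CACGTG. The windows are shown for the marker that names the cells, whose window held none of the 4, and for both windows with a match, in the direction of transcription, with the match in capitals (in Syt2 the extended site is on the reverse strand). A match is a description of letters and was not tested as a binding site.
Pvalb, chr15:78206351-78206650, minus strand: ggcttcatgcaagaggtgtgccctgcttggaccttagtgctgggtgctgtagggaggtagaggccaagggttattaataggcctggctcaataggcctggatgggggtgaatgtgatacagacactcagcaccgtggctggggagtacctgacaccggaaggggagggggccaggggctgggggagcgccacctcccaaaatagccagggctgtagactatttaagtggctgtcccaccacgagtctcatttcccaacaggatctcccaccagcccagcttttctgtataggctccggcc
Syt2, chr1:134646362-134646661, plus strand: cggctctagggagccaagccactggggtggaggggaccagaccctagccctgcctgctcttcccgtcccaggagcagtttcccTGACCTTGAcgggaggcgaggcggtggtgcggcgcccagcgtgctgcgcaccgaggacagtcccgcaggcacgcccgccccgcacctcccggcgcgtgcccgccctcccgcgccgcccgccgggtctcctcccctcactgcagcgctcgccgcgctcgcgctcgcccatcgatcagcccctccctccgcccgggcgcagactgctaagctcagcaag
Btbd11, chr10:85386564-85386863, plus strand: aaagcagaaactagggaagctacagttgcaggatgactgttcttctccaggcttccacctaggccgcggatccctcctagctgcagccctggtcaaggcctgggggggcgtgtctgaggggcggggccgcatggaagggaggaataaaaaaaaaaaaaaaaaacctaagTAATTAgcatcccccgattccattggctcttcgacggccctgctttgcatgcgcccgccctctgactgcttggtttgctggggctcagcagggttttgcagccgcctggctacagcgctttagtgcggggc

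Among genes that no gate read, lower than in Sst nuclei and with a mean of at least 50 UMIs per Sst sum, Lama4, a laminin chain, had the largest difference. It was at 0 to 9.07 CPM in PV sums and 75.9 to 176 in Sst sums (log2 difference -6.13 ± 0.27, SE; edgeR adjusted p = 4.21e-13). Synpr, a synaptic vesicle protein, was at 16.1 to 200 CPM against 784 to 1718 (-4.20), and Reln, a secreted glycoprotein, at 17.7 to 86.1 against 731 to 1184 (-4.01). The rule also named Arhgap6 (-4.79), 4930509J09Rik (-4.16), Lrtm1 (-3.93), the AMPA receptor partner Shisa6 (-3.83), Gm28175 (-3.78), the cation channel Trpc6 (-3.68) and the mannosidase Man1a (-3.58). Each was lower in 9 of 9 libraries, and these genes too were chosen for their large differences. Lrtm1 lies within Cacna2d3 on the opposite strand, and how the counting used strand was not given in the sources used here.

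Against Vip nuclei, the genes higher in PV members included Sox6, a transcription factor of the medial eminence lineage, at 693 to 1240 CPM against 15.3 to 69.9 (log2 difference 4.58 ± 0.15, SE; edgeR adjusted p = 2.6e-15). Mypn was at 66.9 to 174 against 0 to 6.13 (6.19) and Eya4, a transcriptional co-activator, at 266 to 440 against 0 to 19.6 (5.13). Oprd1, the delta opioid receptor, was at 82.5 to 120 against 0 to 20.7 (4.51, and 4.31 to 5.64 when 1 library was left out, highest without aged AAV-B3GNT3 replicate 3). Syt2 (4.58), Cemip (4.47), Il1rapl2 (4.28), Tmem132c (4.25), Slit2 (4.22) and Myo1e (3.96) completed the 10, and 4 of these (Syt2, Cemip, Slit2 and Myo1e), besides Mypn, were also named against Sst nuclei. Without aged AAV-B3GNT3 replicate 3 the difference of Myo1e was 4.57.

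Among genes lower than in Vip nuclei, Igf1, a growth factor, was at 4.31 to 28.2 CPM in PV sums and 438 to 1048 in Vip sums (log2 difference -5.27 ± 0.16, SE; edgeR adjusted p = 1.99e-15). Cnr1, the CB1 cannabinoid receptor, was at 6.47 to 46.3 against 218 to 538 (-4.02), and Kcnt2, a sodium-activated potassium channel, at 28.2 to 164 against 831 to 1638 (-4.32). Rgs12 (-5.37), Plpp4 (-5.10), Synpr (-4.80), Sorcs3 (-4.61), Cpne7 (-4.50), Pde1c (-4.01) and the glutamate receptor Grm8 (-3.90) were the others, with Plpp4 at -5.68 without young AAV-EGFP replicate 2. For all 20 genes named against Vip nuclei the 9 PV and 9 Vip values did not overlap. This again describes genes chosen as the largest differences, and the share of all genes without overlap is not given here.

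**Figure D3:**
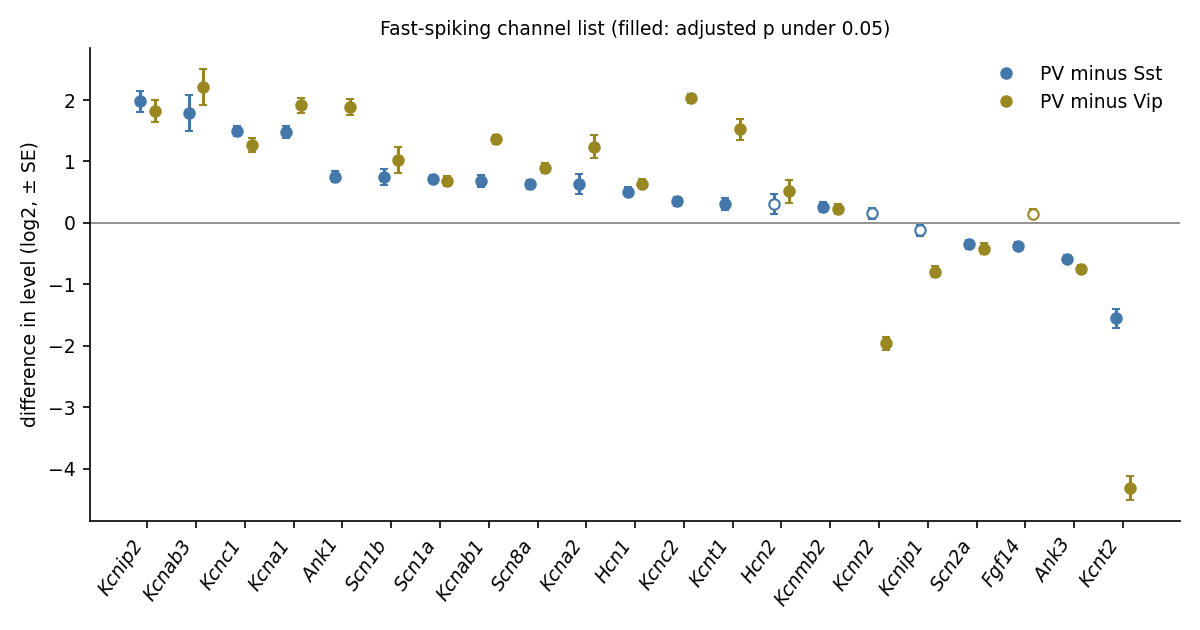
Log2 differences (± SE, edgeR) of PV minus Sst and PV minus Vip sums over 9 libraries for 21 genes of the fast-spiking channel list, with filled points for an adjusted p under 0.05. Of the genes plotted, Kcnip2, Kcnab3, Kcnc1 and Kcna1 lie highest against Sst nuclei, and Kcnt2 lies lowest against both.

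Most of the fast-spiking channel list was called. Without Kcns3, which the gate read, 15 of 22 tested members were higher and 4 lower than in Sst nuclei (median log2 difference 0.57, against -0.01 over all genes tested), and 16 were higher and 5 lower than in Vip nuclei (median 0.89). Of all genes tested, 14.9% were higher and 15.9% lower than in Sst nuclei and 19.1% higher and 20.5% lower than in Vip nuclei, and the counts of each list described next are to be set beside these shares. Kcnc1, the Kv3.1 subunit, was at 269 to 381 CPM in PV sums and 81.0 to 145 in Sst sums (1.50 ± 0.09, SE). Kcna1, the Kv1.1 subunit of axons, was at 118 to 239 against 43.3 to 69.4 (1.48 ± 0.10). The channel-interacting Kcnip2 (1.98) and the sodium channel Scn1a (0.71) were also higher, while Kcnt2 (-1.55) was lower.

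Kcnc2, the Kv3.2 subunit, differed by less against Sst nuclei than against Vip nuclei. It was at 2385 to 4037 CPM in PV sums and 1670 to 2727 in Sst sums, which overlapped (0.35 ± 0.07, SE; edgeR adjusted p = 0.000437), and at 543 to 1067 in Vip sums (2.03 ± 0.08). Whether the 2 differences differ was not tested.

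Genes of GABA release followed. Of 27 tested, 12 were higher and 7 lower than in Sst nuclei (median 0.24), and 13 were higher and 4 lower than in Vip nuclei (median 0.42). Cplx1, which clamps and triggers vesicle fusion, was at 92.4 to 140 CPM in PV sums, 41.6 to 83.5 in Sst sums and 24.5 to 54.5 in Vip sums (0.91 and 1.45). Cacna2d2, a calcium channel subunit, differed by 0.91 and 3.58. Syt1, the calcium sensor that most forebrain synapses use, was lower than in Sst nuclei (-0.33) and did not pass against Vip nuclei (-0.14, edgeR adjusted p = 0.153).

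Receptors went both ways. Of 20 tested genes for chloride transport and GABA receptors, 7 were higher and 6 lower than in Sst nuclei (median -0.13), and of 19 against Vip nuclei 7 were higher and 6 lower (median -0.03). Gabrd, a subunit of tonic receptors, was at 36.3 to 93.6 CPM in PV sums and 3.93 to 18.8 in Sst sums (2.23). Gabra2 went the other way, at 31.6 to 91.3 against 111 to 384 (-1.85).

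Glutamate receptors and synapse organisers were higher in 10 and lower in 13 of 34 genes against Sst nuclei (median -0.12) and higher in 18 and lower in 12 of 37 against Vip nuclei (median 0.19). Erbb4, the neuregulin receptor of these cells, was at 7966 to 17445 CPM in PV sums and 1638 to 4639 in Sst sums (1.97), but at 7630 to 10609 in Vip sums, a difference of 0.26 with overlapping values. Cntnap4 (1.58) and the adhesion protein Lrrc4c (1.88) were higher and Grm7, a presynaptic glutamate receptor, was lower (-1.79) than in Sst nuclei.

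Perineuronal net genes went both ways. Of 14 tested, 6 were higher and 5 lower against each of the other gates (medians -0.16 and -0.05). Acan (aggrecan, the core proteoglycan) was at 8.50 to 23.9 CPM in PV sums and 0 to 3.80 in Sst sums (log2 difference 3.35 ± 0.38, SE), Bcan (brevican) at 63.5 to 127 against 15.2 to 41.6 (1.93) and the protease Adamts15 at 13.1 to 45.4 against 0 to 9.30 (2.72). Ptprz1, a receptor-type proteoglycan, was lower than in Sst nuclei (-1.30).

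Of the identity transcription factors, 6 of 21 were higher and 6 lower than in Sst nuclei (median 0.02), and 11 were higher and 7 lower than in Vip nuclei (median 0.34). Esrrg, an oestrogen-related receptor of oxidative metabolism, was at 993 to 1405 CPM in PV sums and 219 to 363 in Sst sums (2.13 ± 0.09, SE), and its co-activator Ppargc1a at 240 to 534 against 124 to 230 (1.21 ± 0.10). Mef2c (0.96) and Rora (1.06) were also higher. Tox, an HMG-box factor, was lower, at 15.6 to 150 against 266 to 488 (-2.69).

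Nuclear-encoded subunits of oxidative phosphorylation were higher or not called. Of 46 tested, 18 were higher and 0 lower than in Sst nuclei (median 0.38), and of 44 against Vip nuclei 18 were higher and 0 lower (median 0.41). Atp5a1, an ATP synthase subunit, had a median of 68.0 CPM in PV sums and 47.1 in Sst sums (0.52), and Ndufs4, of complex I, 142 and 106 (0.37). Ribosomal protein genes had 0 of 20 called against Sst nuclei (median 0.02) and 2 of 25 lower against Vip nuclei (median -0.20).

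Activity-dependent genes were lower where they were called. A gene could enter a comparison of gates through the other gate alone, which favours a lower value in PV members. In the fit of PV sums alone, 4 activity-dependent genes, without Egr1, and 9 neuropeptide genes passed the count filter. Against Sst nuclei 4 of 5 tested were lower (Homer1, Crem, Nr4a1 and Egr1), and against Vip nuclei 8 of 9 (median -1.76). Egr1, an immediate early transcription factor, had median levels of 9.07 CPM in PV sums and 33.9 in Sst sums (-1.98). Of the neuropeptide list, 2 genes were higher and 5 lower of 14 against Sst nuclei, with Tac1, the precursor of substance P, higher (1.57) and Npy lower (-2.37), and 2 were higher and 9 lower of 16 against Vip nuclei. Tac1 rested on 79 UMIs over all PV sums, with 23 and 20 of them in aged AAV-EGFP replicates 2 and 3. It did not pass the count filter in the fit of PV sums alone. Calcium handling genes split evenly, with 8 higher and 8 lower of 21 in each comparison, and Itpr1, a calcium release channel, was among the higher (1.14 and 2.28). Few subtype markers could be tested: of basket cell markers 2 were higher and 3 lower of 7 against each gate, and of chandelier cell markers 1 of 2 was lower against Sst and 2 of 3 against Vip nuclei.

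The next question was what differed in PV members with age and with AAV-B3GNT3. All 9 PV sums entered a single edgeR quasi-likelihood fit of 6986 genes. Both the ageing and the treatment comparison use the same 3 aged AAV-EGFP libraries, so their values are given side by side and are not independent of each other. The libraries come from separate mice, and p-values measure the spread between them.

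With age under the control virus, no gene passed: 0 of 6986 (0%) had an adjusted p under 0.05 and the smallest was 0.0594. At an unadjusted p under 0.05 there were 916 genes (13.1%), 502 higher and 414 lower in aged AAV-EGFP mice, and DESeq2 called 9 of 5372 (0.168%). With AAV-B3GNT3 in aged mice, 2 of 6986 genes (0.0286%) passed, both lower, with 745 at an unadjusted p under 0.05 (10.7%) and 15 of 5025 (0.299%) called by DESeq2. Between aged AAV-B3GNT3 and young AAV-EGFP mice 0 of 6986 (0%) passed, with 552 at an unadjusted p under 0.05 (7.90%) and 1 of 18566 (0.00539%) called by DESeq2. The CPM of 3 mice lay fully above those of the other 3 for 8.93% of genes with age, 7.79% with treatment and 7.27% between treated aged and young mice, and fully below for 8.10, 8.40 and 6.84%.

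**Figure D4:**
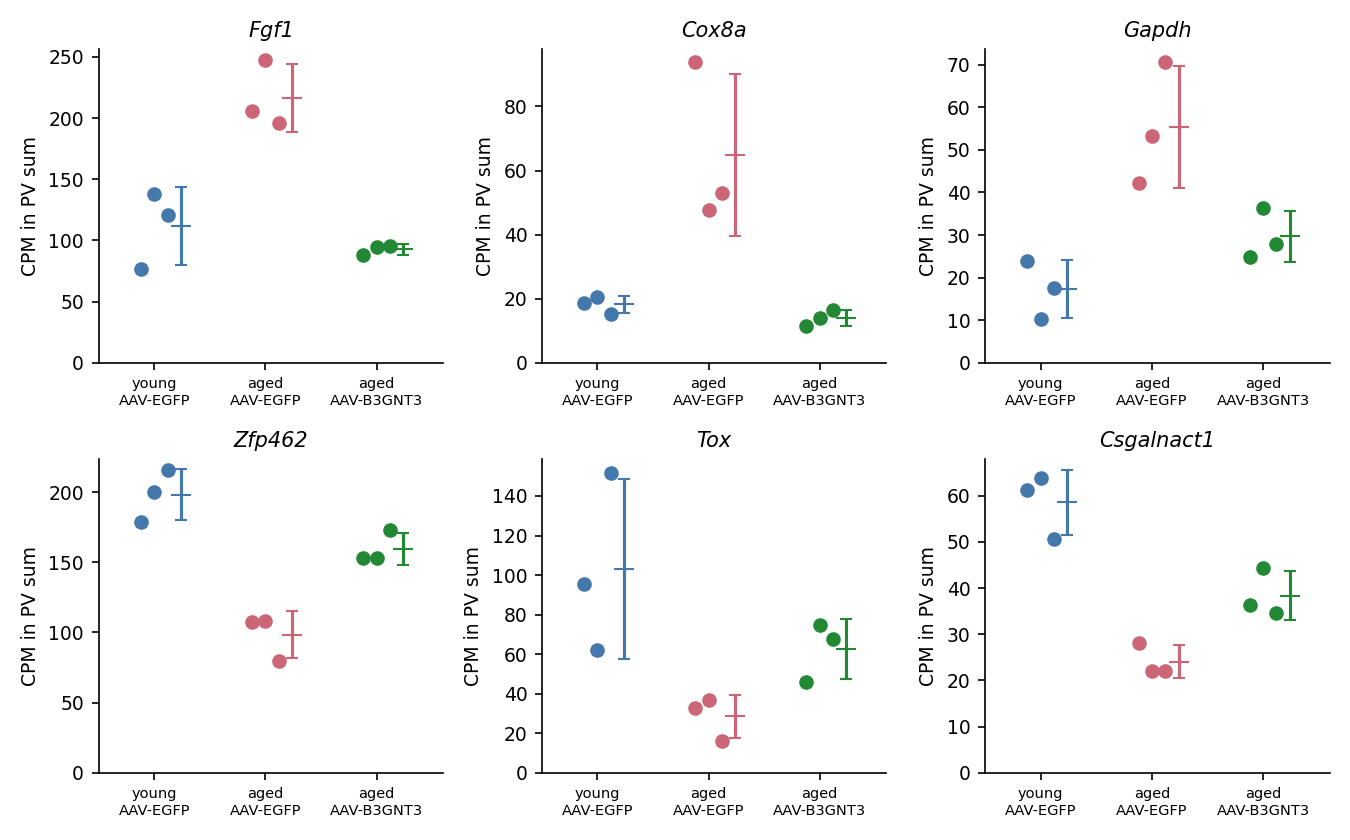
Levels of 6 genes in the PV sum of each library, as CPM, with the mean ± SD of each group (n = 3). Fgf1 and Cox8a, the genes that passed the test for treatment, are highest in the 3 aged AAV-EGFP libraries, as is Gapdh, while Zfp462, Tox and Csgalnact1 are lowest there, and none of the 6 passed the test for age.

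Fgf1, an acidic fibroblast growth factor that neurons express, was at 206, 248 and 196 CPM in aged AAV-EGFP mice, 87.9, 94.7 and 95.4 in aged AAV-B3GNT3 and 76.7, 138 and 121 in young AAV-EGFP mice. The aged AAV-EGFP values lay above all others. The log2 difference with AAV-B3GNT3 was -1.23 ± 0.20 (SE; edgeR adjusted p = 0.0483), and with age 0.97 ± 0.20 (adjusted p = 0.0594). Fgf1 lies opposite Arhgap26 on chromosome 18.

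Cox8a, a subunit of cytochrome c oxidase, was at 93.7, 47.7 and 52.9 CPM in aged AAV-EGFP mice, 11.5, 14.1 and 16.5 in aged AAV-B3GNT3 and 18.7, 20.6 and 15.4 in young AAV-EGFP mice. Again the aged AAV-EGFP values lay above all others, with replicate 1 the highest. The difference with AAV-B3GNT3 was -2.06 ± 0.34 (SE; edgeR adjusted p = 0.0483), on a mean of 17.5 UMIs per sum, which is below the naming limit of 20, and it is named here after its values were seen. It was -1.35 (adjusted p = 0.327) in members with few other-class molecules, -2.88 (adjusted p = 0.678) with at least 2 UMIs of Pvalb, and -2.05 (adjusted p = 0.0769) with only both aged groups in the fit.

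Both calls sit at the threshold. They were lost without young AAV-EGFP replicate 2 or 3, aged AAV-EGFP replicate 1, 2 or 3, or aged AAV-B3GNT3 replicate 1 or 2, where the adjusted p of Fgf1 was 0.0539, 0.0718, 0.0847, 0.360, 0.0877, 0.206 and 0.270 in that order. That of Cox8a was 0.0539, 0.0718, 0.0847, 0.160, 0.109, 0.206 and 0.270. The direction held in every one of these fits. DESeq2 called both genes (adjusted p = 0.0127 for Fgf1 and 0.0217 for Cox8a). Both also passed without the upper limit on genes per nucleus (edgeR adjusted p = 0.0377 and 0.0280). Without young AAV-EGFP replicate 1 the values were 0.00651 and 0.0363. With only both aged groups in the fit, Fgf1 passed (edgeR adjusted p = 0.0146) and Cox8a did not.

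Fgf1 was also lower with AAV-B3GNT3 in 2 of the other 3 gates. In excitatory nuclei Fgf1 was at 41.4, 39.4 and 39.5 CPM in aged AAV-EGFP against 12.5, 9.92 and 15.1 in aged AAV-B3GNT3 mice (-1.67 ± 0.18, SE; edgeR adjusted p = 0.00318), and Cox8a was lower too (-1.05, adjusted p = 0.0419). In Sst nuclei Fgf1 was lower (-1.31, adjusted p = 0.0456), and in Vip nuclei its difference of -0.45 did not pass (adjusted p = 0.554). Cox8a differed by -0.86 in Sst nuclei and did not pass (adjusted p = 0.462). No gene's treatment difference differed between PV members and Sst, Vip or excitatory nuclei (0 of 7967, 0 of 7887 and 0 of 13154, each 0%, with smallest adjusted p of 0.744, 0.484 and 0.0617, and 369, 379 and 661 genes at an unadjusted p under 0.05).

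The genes with the lowest p for age are given as values, since none passed (adjusted p = 0.0594 for each). Zfp462, a zinc finger protein, was at 179, 200 and 216 CPM in young AAV-EGFP, 108, 108 and 79.4 in aged AAV-EGFP and 153, 153 and 173 in aged AAV-B3GNT3 mice (log2 difference with age -1.04). Tox was at 95.4, 61.9 and 152 in young, 32.8, 36.7 and 16.2 in aged AAV-EGFP and 45.8, 74.6 and 67.5 in aged AAV-B3GNT3 mice (-1.92 ± 0.36). Aged AAV-EGFP lay below both other groups in each of these genes. Without the upper limit on genes per nucleus the difference of Tox with age was -0.78 (edgeR adjusted p = 0.445).

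Csgalnact1, which starts chondroitin sulphate chains, was at 61.3, 63.9 and 50.6 CPM in young, 28.1, 22.0 and 22.1 in aged AAV-EGFP and 36.3, 44.3 and 34.6 in aged AAV-B3GNT3 mice (-1.34, and -0.53 without the upper limit on genes per nucleus), and the groups did not overlap. Pdia3, a disulphide isomerase, was at 68.2, 88.7 and 106 in young and 28.1, 29.4 and 41.2 in aged AAV-EGFP mice (-1.33), and Gm26917 differed by -1.31. On the higher side were Gm26854 (1.76), which lies antisense to Oxr1, AC149090.1 (1.78), Btf3l4 (1.85), the glycolytic enzyme gene Gapdh (1.71), which has many processed copies, and Cox8a (1.69). The difference of Cox8a with age was 2.92 with at least 2 UMIs of Pvalb (edgeR adjusted p = 0.462). It was 1.27 in members with few other-class molecules (adjusted p = 0.328). AC149090.1 was at 356, 68.1 and 183 CPM in young AAV-EGFP mice, and its difference ranged from 1.36 to 2.49 when 1 library was left out and passed without young AAV-EGFP replicate 1 (edgeR adjusted p = 0.00189).

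DESeq2 called 9 genes with age, named after their values were seen: Tox, Zfp462, Gm26917, the potassium channel partner Kcnip4, Tshz3, Trhde, Galntl6, Cntnap5c and Fth1. In the edgeR fit Kcnip4 differed by 0.82 ± 0.20, Tshz3 by 0.90 ± 0.18 and Fth1, the heavy chain of ferritin, by 2.06 ± 0.42, with adjusted p between 0.0594 and 0.0995 for all 9. Between treated aged and young mice the genes with the lowest p were 2810049E08Rik (1.41), Tshz3 (0.93), Ide (1.07), Rufy1 (1.03) and Nyap2 (1.01) on the higher side and Sgpp2 (-1.63), Pdia3 (-1.21), Fat3 (-0.82), Gm28539 (-1.24) and Sorcs2 (-1.56) on the lower side (edgeR adjusted p 0.151 to 0.225). Tshz3, a zinc finger homeobox factor, was at 424, 318 and 383 CPM in young, 844, 747 and 534 in aged AAV-EGFP and 791, 629 and 729 in aged AAV-B3GNT3 mice, so both aged groups lay above the young one.

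**Figure D5:**
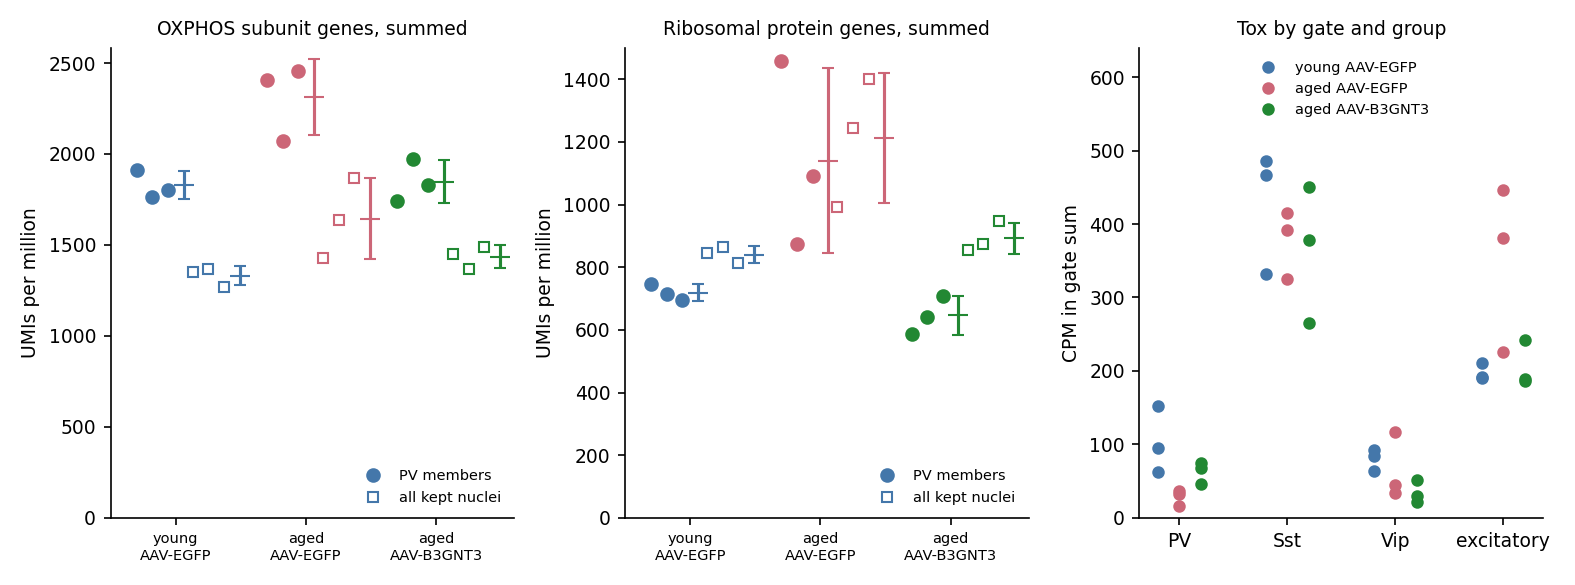
The left and middle panels plot the summed CPM of 74 oxidative phosphorylation and 78 ribosomal protein genes in each library, in PV members (filled circles) and in all kept nuclei (open squares), with the mean ± SD of each group (n = 3). The aged AAV-EGFP libraries lie highest in both sets of nuclei, except that 1 such value of all kept nuclei for oxidative phosphorylation (1426) lies within the range of aged AAV-B3GNT3 libraries. The right panel plots Tox, as CPM, by gate and group, where the 3 aged AAV-EGFP values lie below the young ones in PV members and above them in excitatory nuclei.

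Of the oxidative phosphorylation genes, 1 was called between groups. With age 0 of 43 tested were called, 39 had a positive and 4 a negative difference (median 0.42, against 0.01 over all genes), and the CPM of 15 did not overlap on the higher side, a share to be set beside the 8.93% of all genes. With AAV-B3GNT3 1 of 43 was called (Cox8a), 38 differences were negative (median -0.44, against 0.00), and 12 did not overlap on the lower side, beside the 8.40% of all genes. Between treated aged and young mice 21 were positive and 22 negative (median -0.01). Cox4i1, another cytochrome c oxidase subunit, was at 18.7, 10.3 and 8.80 CPM in young, 37.5, 29.4 and 38.2 in aged AAV-EGFP and 13.4, 24.2 and 13.2 in aged AAV-B3GNT3 mice, and did not pass in either comparison.

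The sum over the list was 1765 to 1914 CPM in young, 2073 to 2456 in aged AAV-EGFP and 1740 to 1973 in aged AAV-B3GNT3 PV members. Over all kept nuclei the sums were 1270 to 1365, 1426 to 1869 and 1368 to 1487, so the aged AAV-EGFP libraries were also highest there, apart from 1 value. The ribosomal protein sums were 694 to 747, 874 to 1457 and 588 to 709 in PV members, and 813 to 863, 991 to 1402 and 854 to 948 in all kept nuclei. Of the 11 ribosomal genes tested, 0 were called in any comparison, 8 were positive with age (median 0.36) and 10 negative with treatment (median -0.91).

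Mitochondrially encoded transcripts, a sign of cytoplasmic RNA in a nuclear preparation, were at 13.0 to 62.1 CPM in young, 29.9 to 344 in aged AAV-EGFP and 25.0 to 65.0 in aged AAV-B3GNT3 PV members, with the highest value in aged AAV-EGFP replicate 1. The part of cytoplasmic RNA in these lists was not tested. The 9 oligodendrocyte markers summed to 197 to 550 CPM in young, 140 to 671 in aged AAV-EGFP and 136 to 305 in aged AAV-B3GNT3 PV members, and the 8 Vip or Lamp5 markers to 64.8 to 938, 34.6 to 1054 and 138 to 553. Aged AAV-EGFP replicate 1 held the highest value of both lists, as of mitochondrial transcripts. The groups overlapped in both lists, and their part in the group differences was not tested.

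The genes that define the cells electrically and synaptically had 0 calls between groups, where 0%, 0.0286% and 0% of all genes were called. Genes that the gate read were left out of each list. The fast-spiking list had 15 positive and 7 negative differences of 22 with age (median 0.06) and 7 and 15 with treatment (median -0.15). With age 2 did not overlap on the higher side and 3 on the lower, beside 8.93 and 8.10% of all genes. With treatment 6 did not overlap on the lower side and 0 on the higher, beside 8.40 and 7.79%. Kcna1 was at 203, 243 and 205 CPM in young, 122, 127 and 135 in aged AAV-EGFP and 151, 185 and 135 in aged AAV-B3GNT3 mice (-0.75 ± 0.17 with age, SE; edgeR adjusted p = 0.0969), so that the young and aged control values did not overlap. Kcnc1 was at 371, 326 and 379 in young and 281, 391 and 359 in aged AAV-EGFP mice (-0.04), which overlapped.

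Among release genes, 18 differences were positive and 7 negative of 25 with age (median 0.09) and 11 and 14 with treatment (median -0.05). Syt2 was at 210, 200 and 242 CPM in young, 84.4, 180 and 107 in aged AAV-EGFP and 195, 195 and 169 in aged AAV-B3GNT3 mice (-0.75 ± 0.21 with age, edgeR adjusted p = 0.147, and 0.53 ± 0.21 with treatment, adjusted p = 0.367). Young and aged control values did not overlap, and aged control and treated values did.

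Glutamate receptors and synapse organisers had 30 positive and 5 negative differences of 35 with age (median 0.23) and 6 and 29 with treatment (median -0.21). With age 8 did not overlap on the higher side and 0 on the lower, beside 8.93 and 8.10% of all genes. With treatment 10 did not overlap on the lower side and 0 on the higher, beside 8.40 and 7.79%. Erbb4 was at 8115, 10894 and 10997 CPM in young, 12949, 17914 and 13298 in aged AAV-EGFP and 8761, 8162 and 12032 in aged AAV-B3GNT3 mice (0.56 ± 0.18 with age, edgeR adjusted p = 0.197, and -0.61 ± 0.18 with treatment, adjusted p = 0.218). The aged control values lay above all others. GABA receptor and chloride genes had 12 positive and 7 negative of 19 with age (median 0.09) and 8 and 11 with treatment (median -0.05).

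Perineuronal net genes had 3 positive and 9 negative differences of 12 with age (median -0.20), with 1 not overlapping on the higher and 3 on the lower side, beside 8.93 and 8.10% of all genes, and 7 and 5 with treatment (median 0.04). Acan was at 22.2, 22.7 and 24.2 CPM in young, 18.7, 20.2 and 8.82 in aged AAV-EGFP and 21.0, 22.2 and 18.1 in aged AAV-B3GNT3 mice, on 4 to 13 UMIs per sum (-0.62 ± 0.40 with age, SE). Identity transcription factors had 11 positive and 8 negative of 19 with age (median 0.06) and 6 and 13 with treatment (median -0.18). The medians with age and with treatment were 0.03 and -0.10 for neuropeptide genes, -0.06 and -0.10 for activity-dependent genes and -0.09 and -0.02 for calcium handling genes, again with 0 calls.

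Of the neuronal genes that the study discusses, chosen on these samples and so no independent evidence of a direction, 5 could be tested and 0 passed in any comparison. The log2 differences with age and with treatment were -0.26 and 0.37 for Rims4, -0.02 and 0.18 for Smad1, -0.06 and 0.10 for Foxo3 and 0.11 and -0.17 for Ccnd2. Wnt5a was below the count limit.

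Pvalb itself could be compared between groups only in nuclei chosen without it. A gate on Lhx6 with Btbd11 or Kcns3, without Sst, Vip, Drd1 and Drd2, found 614 nuclei, in which 3 of 8538 genes (0.0351%) passed for age, 0 (0%) for treatment and 1 (0.0117%) between treated aged and young mice, none of them Pvalb. In their sums Pvalb was at 42.5, 36.4 and 32.3 CPM in young AAV-EGFP, 24.9, 46.6 and 51.5 in aged AAV-EGFP and 40.5, 39.5 and 41.3 in aged AAV-B3GNT3 mice, so that the groups overlapped and aged AAV-EGFP was the most spread. The log2 differences were 0.19 ± 0.25 with age (SE; edgeR adjusted p = 0.784), -0.06 ± 0.25 with treatment (adjusted p = 0.948) and 0.13 ± 0.25 between treated aged and young mice (adjusted p = 0.930).

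Whether age acted differently on PV members than on other neurons was tested as an interaction. Against Sst and Vip nuclei 0 of 7967 and 0 of 7887 genes passed (0% each), with smallest adjusted p of 0.374 and 0.271 and 432 and 420 genes at an unadjusted p under 0.05. Against excitatory nuclei 2 of 13154 (0.0152%) passed, Tox and Lrrtm4.

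Tox in excitatory nuclei was at 191, 210 and 191 CPM in young and 447, 381 and 226 in aged AAV-EGFP mice (log2 difference 0.83 ± 0.19, SE; edgeR adjusted p = 0.0230), higher in each aged library, whereas in PV members all 3 aged values lay below the young ones. The difference between the gates was -2.65 ± 0.33 (adjusted p = 0.000235). Lrrtm4, a postsynaptic adhesion protein, was at 2887, 3757 and 3622 in young and 5240, 5938 and 4336 in aged AAV-EGFP PV members, and at 3563, 5294 and 4086 against 4086, 4009 and 2693 in excitatory nuclei (0.83 ± 0.14, adjusted p = 0.0192). In Sst nuclei Tox was at 485, 466 and 332 in young and 325, 392 and 415 in aged AAV-EGFP mice, which overlapped (-0.18, adjusted p = 0.719).

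Both interactions depended on the upper limit of 5000 genes per nucleus. Without it, PV members numbered 449, the difference for Tox was -1.64 (edgeR adjusted p = 0.609) and that for Lrrtm4 0.52 (adjusted p = 0.712). The Lrrtm4 call was also lost without young AAV-EGFP replicate 1 or 2, aged AAV-EGFP replicate 2 or 3 or aged AAV-B3GNT3 replicate 3, where the adjusted p was 0.0869, 0.195, 0.186, 0.0502 and 0.0717, while the Tox call held without each library in turn.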

How the data were processed

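Nuclei of 9 mice (1 library per mouse, 3 mice in each of 3 groups) were measured by droplet 3′ RNA sequencing. The authors deposited raw UMI counts per gene and nucleus, as filtered matrices of 31053 genes. The submitters' processing notes name Cell Ranger 4.0.0 and mm10, while the matrix headers name 7.2.0. The authors' removal of free RNA and doublets and their cell annotation came later and were not used here, and no doublet caller was run. Whether intronic reads or strand were used in counting is not given in the sources used here.

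Members and gene lists were chosen with earlier results of these data known. Genes read by a gate were left out of the lists where called genes were counted and of the genes named between gates. Summed levels of other-class markers kept them. UMIs were summed per mouse and gate, genes were kept with the filterByExpr function (minimum count 10), and sums were scaled by TMM and tested with edgeR 4.0.16 (quasi-likelihood, Benjamini-Hochberg) in R 4.3.3. DESeq2 1.42.0 was an alternative. CPM are UMIs scaled by that total. Tests were also run on simulated data with known answers, and the outcome is not reported here. Shares were compared by exact permutation in Python 3.11.15 with scipy 1.17.1. Wilson intervals (95%) cover counting error only. Annotation came from GENCODE for the same build.

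Named genes between gates were the 10 with the largest differences each way, with an adjusted p under 0.05 and a mean of at least 50 UMIs. Between groups they were up to 12 each way that passed, had at least 20 UMIs per sum and did not overlap, or, where none passed, the 5 with the lowest p each way. For interactions up to 5 genes were named. The PV sums over tested genes held 224347 to 683080 UMIs, and TMM factors ranged from 0.891 to 1.06. Replicate libraries differed by more than sampling noise (chi-square per degree of freedom 1.97 to 3.29). A few genes of the lists are counted but not reported by name here.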

Additional observations from a re-analysis of the deposited data

Results flagged for a closer look

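Tox and Lrrtm4 are listed because the change with age, under AAV-EGFP, differed between PV members and excitatory nuclei in a test of the difference itself. For Tox the change in PV members minus that in excitatory nuclei was -2.65 ± 0.33 on the log2 scale (SE; edgeR adjusted p = 0.000235), with 3 of 3 aged PV values below all young ones and 3 of 3 aged excitatory values above. For Lrrtm4 it was 0.83 ± 0.14 (adjusted p = 0.0192), with 3 of 3 aged PV values above all young ones and overlapping excitatory values. Neither passed without the upper limit on genes per nucleus (edgeR adjusted p = 0.609 and 0.712).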

How the results depend on the processing

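The 18 to 54 members per library limit what can be detected, and 1 UMI of Pvalb decides most memberships. With DESeq2, 9 genes were called for age, 15 for treatment and 1 between treated aged and young PV members. Without the low-count filter the counts were 166, 123 and 54. For treatment, RLE size factors gave 0, Pvalb of at least 2 UMIs 0 and members with few other-class molecules 1, which was neither Fgf1 (adjusted p = 0.0926) nor Cox8a (adjusted p = 0.327). Leaving out 1 library gave 0 to 8 genes for age (8 without aged AAV-EGFP replicate 1), 0 to 30 for treatment (30 without aged AAV-B3GNT3 replicate 3) and 0 to 1 between treated aged and young. In those fits a group of 2 was assumed to vary like the others.

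Deviations of same-numbered libraries had correlations of -0.11 to 0.073, within the -0.17 to 0.16 of libraries with different numbers. Whether equal numbers mark mice that were processed together cannot be told from these values. With the replicate number as a block, 0 genes were called in each comparison, and the adjusted p of Fgf1 and Cox8a was 0.119, with log2 differences of -1.20 and -2.08.

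For nuclei chosen without Pvalb, DESeq2 called 14, 12 and 5 genes, leaving out 1 library gave 0 to 110 (110 without aged AAV-EGFP replicate 1), 0 to 28 (28 without aged AAV-B3GNT3 replicate 3) and 0 to 7, and without the upper limit on genes 0 were called for age. The difference of Pvalb there changed sign to -0.023 with age and -0.059 between treated aged and young without that limit, and to 0.022 and 0.12 with treatment without aged AAV-EGFP replicate 2 or 3 (range when leaving out 1 library -0.27 to 0.12).

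With at least 2 UMIs of Pvalb or Sst, 1399 genes were called between PV and Sst nuclei, and leaving out 1 library gave 2197 to 2456. Against Vip nuclei the range was 2894 to 3153. The interaction of age with excitatory nuclei gave 0 genes without the upper limit and 1 to 63 when leaving out 1 library (63 without aged AAV-EGFP replicate 1), all alternatives chosen after seeing the data. The exact p for PV members per Sst nucleus ranged from 0.0179 to 0.0429, and no share of PV members crossed the threshold. The causes of these changes were not tested.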

Other observations

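In nuclei chosen without Pvalb (614 nuclei, 8538 genes tested), 3 genes (0.0351%) passed for age, 0 (0%) for treatment and 1 (0.0117%) between treated aged and young mice. The mannosidase gene Man1a was at 60.4, 59.5 and 96.8 CPM in young and 19.2, 23.9 and 7.53 in aged AAV-EGFP mice (log2 difference -2.10, edgeR adjusted p = 0.0431). 9630028H03Rik was at 44.7, 63.1 and 72.6 against 136, 145 and 164 (1.31), and 1700111E14Rik at 29.1, 40.1 and 36.9 against 82.5, 117 and 96.6 (1.50), with the same adjusted p. The young and aged values of all 3 did not overlap. Man1a was also named above as lower in PV members than in Sst nuclei, and this gate can admit Sst cells whose Sst was not detected. Whether the mix of nuclei in this gate differed between groups was not tested. The count for age was 0 without the upper limit on genes per nucleus, and 0 without young AAV-EGFP replicate 2 or 3, aged AAV-EGFP replicate 2 or 3 or aged AAV-B3GNT3 replicate 1. It was 1 without young AAV-EGFP replicate 1, 13 without aged AAV-B3GNT3 replicate 2, 14 without aged AAV-B3GNT3 replicate 3 and 110 without aged AAV-EGFP replicate 1. There were 1136 genes for age and 912 for treatment at an unadjusted p under 0.05. 2810049E08Rik was at 40.3, 34.0 and 33.4 in young and 90.8, 104 and 95.1 in aged AAV-B3GNT3 mice (1.42, adjusted p = 0.0073), and the count in that comparison was 0 without young AAV-EGFP replicate 2 or 3.

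Members with 1 Pvalb UMI and with 2 or more differed in other genes, given as medians over libraries and as a description only, since the groups differ in depth. Syt2 was at 155 CPM with 1 and 204 with 2 or more, higher in the latter in 7 of 9 libraries, and Kcna1 at 131 and 186, also in 7. Of 13 genes that are higher in PV members or known of these cells, picked with their values known, 8 had a higher and 5 a lower median with 2 or more. Mybpc1 was at 66.8 and 92.8, higher with 2 or more in 8 of 9 libraries, and Esrrg at 1082 and 1243, in 7. On the lower side, Kcnc2 was at 2601 and 2576 and Erbb4 at 11063 and 9321, each higher with 2 or more in 3 of 9 libraries, Myo1e at 212 and 162, in 4, and Tac1 at 15.4 and 10.7, in 2. Synpr was at 80.4 and 21.5, higher with 2 or more in 1 of 9 libraries, and Adarb2, a marker of Vip and Lamp5 interneurons, at 151 and 32.7, in 1 of 9.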
